A study of Mus musculus with 6 samples.

Results

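Potassium channels were examined in the carotid body, the chemosensory organ at the carotid fork, of mice from 2 inbred strains, A/J and DBA/2J. The genes are those whose symbol starts with Kcn, apart from the tandem-pore (Kcnk) and large-conductance (Kcnm) families, and were taken as every probe set that the platform annotation gives to such a symbol alone. They number 66 genes with 137 probe sets, of 18193 genes with 34945 probe sets that name 1 gene on the array. Beside voltage-gated and inward rectifier channels, the symbols take in auxiliary proteins, 7 genes of channels gated by calcium, sodium or pH (Kcnn, Kcnt and Kcnu) and Kcnq1ot1, a non-coding RNA of the Kcnq1 locus.

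All mice were untreated males aged 28 days from the Jackson Laboratory. RNA of several animals was pooled for each Affymetrix Mouse 430 2.0 array. The A/J arrays 1, 2 and 3 held 40, 42 and 38 carotid bodies of 20, 21 and 19 mice, and the DBA/2J arrays 1, 2 and 3 held 38, 36 and 38 of 19, 18 and 19 mice. No label says whether pools shared a day of dissection, so the spread is that between 3 pools a strain. Values are linear signals in arbitrary units, and differences are DBA/2J minus A/J of log2(signal + 16), a scale that understates changes of dim probe sets. With 3 arrays a strain, their number limits the precision. Because whole organs were pooled, fewer cells of a type and less RNA per cell cannot be told apart.

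Potassium channels let potassium leave the cell and so hold or restore the negative membrane potential. A voltage-gated (Kv) channel is built from pore-forming subunits, and beta subunits, KChIPs and KCNE proteins bind to it and set its trafficking and gating. Inward rectifiers (Kir) pass current best near the resting potential. In the type I (glomus) cell of the carotid body, low oxygen inhibits potassium currents, the cell depolarises, and transmitter is released onto the sensory nerve; Kv currents are among those studied in this response.

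The tissue differed between the pools in ways that stand beside the channel values. Of 14 tested skeletal muscle markers all 14 were lower in DBA/2J, and the summed signal of the list was 52504 to 125725 on the A/J arrays against 1875 to 3305 on the DBA/2J arrays. Of 13 type I cell markers, 7 were called higher (limma, adjusted p under 0.05) and all 13 lay above 0, with summed signals of 45737 to 51956 in A/J against 85743 to 93873 in DBA/2J. Markers of Schwann and type II glia gave sums of 42142 to 50143 in A/J against 29815 to 35683 in DBA/2J, with 8 of 9 markers below 0 and 0 called by limma (5 were lower at an unadjusted p under 0.05). The 11 ganglion neuron markers had 6 above and 5 below 0, and their sums overlapped. They also overlapped for smooth muscle (36779 to 53854 over both strains), with 9 of 10 markers below 0, and for macrophages and lymphocytes (14599 to 22850), with 6 of 6 below 0. In the smooth muscle list and in the macrophage and lymphocyte list 0 were called by limma, and 2 were lower at an unadjusted p under 0.05. At that p 1 smooth muscle marker was higher. Of the ganglion neuron markers 0 were called, with 3 higher and 1 lower at an unadjusted limma p under 0.05. Endothelial sums were 7569 to 8495 on the A/J and 8943 to 11868 on the DBA/2J arrays. Of these markers 0 were called by limma, and 3 were higher at an unadjusted p under 0.05. Adipocyte sums were 47122 to 66181 in A/J against 24276 to 39005 in DBA/2J, with 5 of 5 tested markers below 0 and Ucp1 and Fabp4 called lower. None of these lists was at 0 on any array. The ratio of the 3' to the 5' probe set of Gapdh, a sign of RNA length, ran from 1.74 to 4.87 on the A/J and from 1.73 to 3.28 on the DBA/2J arrays, with A/J array 2 highest.

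The only gene of these 66 that passed the test was Kcnip3, which codes for KChIP3 (also named calsenilin or DREAM), a calcium-binding partner of Kv4 channels. In 9 genes a tested probe set lay higher in DBA/2J with no overlap of the arrays (16.7% of channel probe sets, against 11.5% of all). RefSeq windows of 8 of these genes, 11 windows in all, were searched for the motif CAGCTG, an E-box that bHLH factors bind. It was in 4 of the 11 windows, 1 each for Kcnip3, Kcnj3, Kcnd3 and Kcne4. Of these, the windows of the genes at least 1.5-fold apart are printed: Kcnip3, the Kv4 pore gene Kcnd3 and the Kir3.1 gene Kcnj3. Windows run from 250 bases before to 50 after a RefSeq start (GRCm38.p6), are printed on the gene's strand, and carry the motif in capitals.
Kcnip3 (chr2:127522045-127522344, minus strand): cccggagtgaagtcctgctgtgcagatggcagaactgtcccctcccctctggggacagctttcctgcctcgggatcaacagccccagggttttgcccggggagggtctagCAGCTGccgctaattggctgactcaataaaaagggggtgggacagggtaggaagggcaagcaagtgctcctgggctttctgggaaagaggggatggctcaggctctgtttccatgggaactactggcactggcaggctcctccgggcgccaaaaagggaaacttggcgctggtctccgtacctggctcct
Kcnd3 (chr3:105451640-105451939, plus strand): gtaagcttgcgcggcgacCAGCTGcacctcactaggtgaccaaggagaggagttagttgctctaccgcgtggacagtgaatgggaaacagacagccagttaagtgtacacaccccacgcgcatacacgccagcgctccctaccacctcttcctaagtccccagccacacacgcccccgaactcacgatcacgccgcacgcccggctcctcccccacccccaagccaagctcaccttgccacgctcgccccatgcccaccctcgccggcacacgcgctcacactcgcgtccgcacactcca
Kcnj3 (chr2:55435720-55436019, plus strand): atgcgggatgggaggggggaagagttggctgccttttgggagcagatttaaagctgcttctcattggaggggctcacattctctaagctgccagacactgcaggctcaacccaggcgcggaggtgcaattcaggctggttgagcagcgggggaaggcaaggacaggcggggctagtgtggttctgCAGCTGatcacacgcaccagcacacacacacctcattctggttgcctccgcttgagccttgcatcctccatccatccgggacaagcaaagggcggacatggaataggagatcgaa
Kcnip3 has 3 starts in the table, and the windows of the other 2 hold no CAGCTG. Nor do the windows of Kcnc1, Kcnh8, Kcnj8 and Kcnq5, whose arrays were also apart and higher in DBA/2J. Kcnd1, the remaining gene of the 9, was not searched. The array does not tell which start was in use. The letters CAGCTG, which read alike on both strands, were in 21 of 70 windows of 49 channel genes (30%) and in 16.3% of all 32851 windows. The median share of G and C was 58.0% in the channel windows and 52.7% in all. ACGTG, the core of the site of hypoxia-inducible factors, was searched on both strands and was in 18.6% of the channel windows and 19.6% of all. It was in none of the 3 windows printed. Both kinds of match describe letters only.

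Of the 137 channel probe sets 83 were too dim for a test, and 30 of the 66 genes had no tested probe set. The test kept the upper 60% of probe sets by mean signal, and 54 channel probe sets from 36 genes were among them. Of these 54, 22 lay in the lowest 25% of the kept range. The 83 untested probe sets had signals from 1.0 to 259 and differences from -0.98 to 1.16, and none both differed by 1 or more and had arrays that did not overlap. The genes with none kept included Kcnd2 of the Kv4 family, Kcnc2 of the Kv3 family, Kcnj2 and Kcnj16 among the inward rectifiers and all of Kcnf1, Kcng1, Kcng2, Kcng4, Kcnv1 and Kcnv2, silent modifiers of Kv2. Whether these genes were expressed at all was not measurable without a detection call.

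Of the 54 probe sets tested, 1 was called higher in DBA/2J and 0 lower (limma, adjusted p under 0.05). That is 1.85%, against 3.27% of all 27022 tested probe sets in either direction, 1.86% higher and 1.41% lower, so the share of calls was not above that of the whole array. At an unadjusted limma p under 0.05 there were 12 of 54 (22.2%, against 15.3% of all), 5 of them higher (7.89% of all) and 7 lower (7.46% of all). The arrays of the strains did not overlap in 15 (27.8%, against 21.1%), 9 of them higher in DBA/2J (11.5% of all) and 6 lower (9.54% of all). With 1 probe set per gene the median difference over the 36 channel genes was 0.03, with 19 above and 17 below 0, and over all 13006 genes it was 0.03. The median size of the difference was 0.31 for the channel genes and 0.24 for all genes, and the median standard error was 0.25 and 0.23. Among the related families, 0 of 7 Kcnk probe sets and 2 of 9 Kcnm probe sets, both of Kcnmb2, were called.

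**Figure D1:**
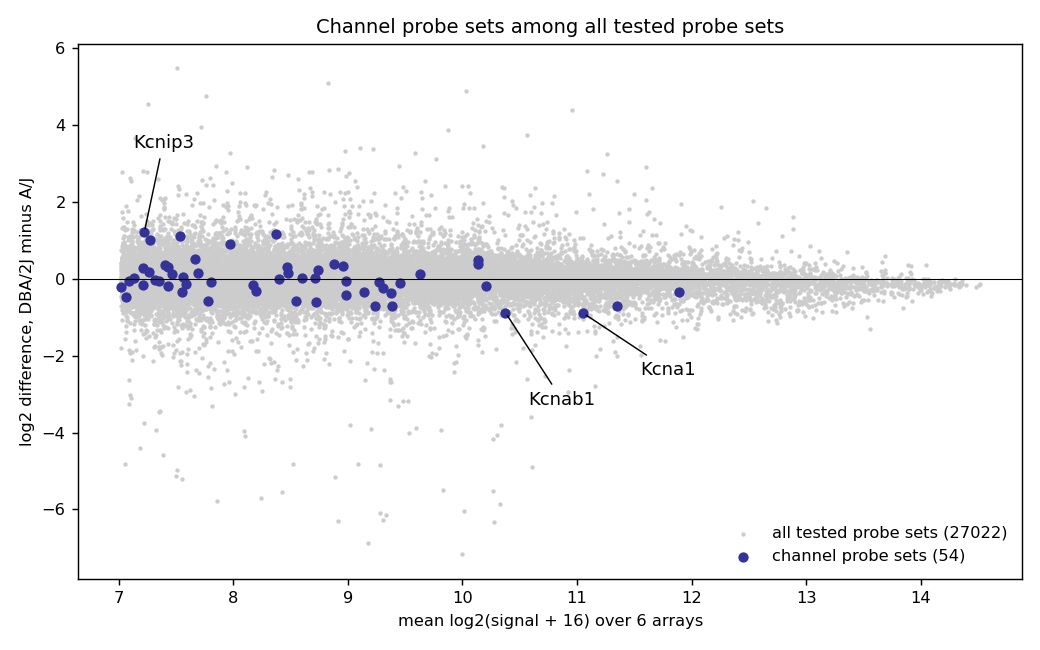
Difference between strains (vertical axis, log2, DBA/2J minus A/J) against mean log2(signal + 16) over 6 arrays (horizontal axis) for all 27022 tested probe sets (grey) and the 54 channel probe sets (blue). The channel probe sets lie between -0.89 and 1.21, inside the cloud of all probe sets, with Kcnip3 at the upper and Kcna1 at the lower end.

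Among Kv4 channels and their partners, Kcnip3 was called higher in DBA/2J, and all 3 kept probe sets of the pore genes lay above 0. Kcnip3 had signals of 80.9, 106.4 and 63.7 on the A/J arrays against 212.3, 238.0 and 187.9 on the DBA/2J arrays, so the groups were well apart. Its difference was 1.21 (SE 0.26, adjusted p = 0.0381), and all 3 DBA/2J arrays were above all 3 A/J arrays. The A/J signals lay under 114, about the level at which probe sets were left out of the test, so it entered the test through its DBA/2J values, and the size of the difference rests on dim values. The call held without A/J array 2 (1.37, adjusted p = 0.0475) and was lost without A/J arrays 1 or 3 (adjusted p = 0.115 and 0.144) and without DBA/2J arrays 1, 2 or 3 (0.158, 0.0700 and 0.0885), while the difference stayed between 1.06 and 1.37. It was also lost with no filter on dim probe sets (adjusted p = 0.0829). The other probe set of Kcnip3 was too dim to test, with 40.9 to 51.0 in A/J against 47.2 to 62.9 in DBA/2J.

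Kcnd3, the Kv4.3 pore subunit of fast-inactivating A-type current, followed the same direction. Its kept probe set read 150.5, 181.5 and 170.0 in A/J against 399.0, 300.3 and 293.8 in DBA/2J. The groups did not overlap, but the difference of 0.91 (SE 0.22) missed the threshold with an adjusted p of 0.0602. Kcnd1, the Kv4.1 subunit, had 318.5 to 446.3 in A/J against 380.9 to 505.4 in DBA/2J at 1 probe set, with overlap and a difference of 0.24 (adjusted p = 0.680). Its other kept probe set had 111.9 to 186.7 and 204.5 to 267.2, with no overlap and a difference of 0.50 (adjusted p = 0.407). Of the other KChIP genes, Kcnip1 differed by 0.28 (adjusted p = 0.711), and Kcnip4 is described with the arrays numbered 2. Dpp6, a membrane partner of Kv4 that was no member here, differed by -0.17 (adjusted p = 0.820). The higher type I cell markers stood beside these values, and their part in them was not tested.

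**Figure D2:**
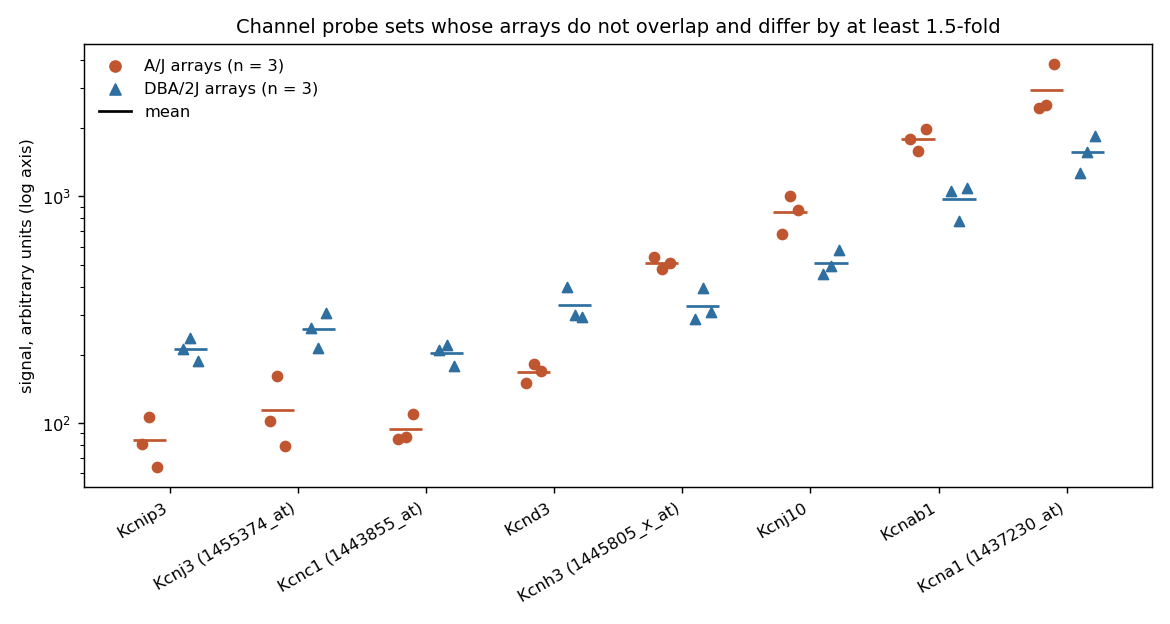
Signal (vertical axis, arbitrary units, log scale) on each of the 6 arrays for the 8 channel probe sets whose arrays did not overlap between strains and whose difference was at least 1.5-fold; circles are A/J, triangles DBA/2J and bars the mean of 3 arrays. Kcnip3, Kcnj3, Kcnc1 and Kcnd3 lie higher in DBA/2J, and Kcnh3, Kcnj10, Kcnab1 and Kcna1 lower, of which Kcnip3 alone was called; levels of different probe sets are not comparable.

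Kv3 channels open at strong depolarisation and close fast. Their 3 kept probe sets lay above 0, with 0 called. For Kcnc1, the Kv3.1 subunit, probe set 1443855_at read 85.0, 86.4 and 109.9 in A/J against 210.1, 221.0 and 179.1 in DBA/2J. These values were apart, with a difference of 1.00 (SE 0.24, adjusted p = 0.0576). All 3 A/J signals lay under 114, so this probe set too entered the test through DBA/2J, and with no filter its adjusted p was 0.122. Probe set 1423559_at of the same gene read 491.2, 416.2 and 388.4 against 564.6, 669.1 and 419.9, with overlap and a difference of 0.32 (adjusted p = 0.584). Kcnc4, the Kv3.4 subunit, had 86.0, 160.5 and 576.5 in A/J against 543.7, 587.6 and 349.3 in DBA/2J. A/J array 3 alone lay among the DBA/2J arrays, and the difference of 1.18 had an SE of 0.55 (adjusted p = 0.359). Without A/J array 3 it was 1.89 and called (adjusted p = 0.0414), but leaving out the highest A/J array widens the difference by construction. Without any other single array it was 0.62 to 1.40 and not called (limma adjusted p = 0.388 to 0.706). The other probe set of Kcnc4, too dim to test, differed by 0.08.

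Of 12 kept probe sets of Kv1 pore genes 10 lay below 0, and 0 were called by limma (2 had an unadjusted p under 0.05). Kcna1 codes for Kv1.1, a delayed rectifier of myelinated axons. Probe set 1437230_at read 2459.7, 2539.0 and 3833.9 in A/J against 1267.4, 1563.9 and 1856.3 in DBA/2J. The arrays did not overlap, and the difference was -0.89 (SE 0.23, adjusted p = 0.0836). Its other kept probe sets differed by -0.70 and -0.33 with overlapping arrays (adjusted p = 0.311 and 0.566), so all 3 lay below 0. Kcna6, the gene of Kv1.6 that lies next to Kcna1, had 3 kept probe sets from -0.48 to -0.07, and the lowest adjusted p was 0.519. Kcna2, which codes for Kv1.2, a partner of Kv1.1 in the same channels, had 4 kept probe sets between -0.19 and 0.03, all with overlap. Kcna5 differed by 0.15 (adjusted p = 0.856).

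Kcnab1, the Kv beta 1 subunit that speeds inactivation of Kv1 channels, read 1794.2, 1592.9 and 1984.1 in A/J against 1055.3, 776.6 and 1091.3 in DBA/2J. No DBA/2J array came near an A/J array, and the difference was -0.88 (SE 0.20) with a limma adjusted p of 0.0541, just above the threshold. It was called with quantile normalization (limma adjusted p = 0.0490), the upper 40% of probe sets (0.0485) and array weights (0.0112). It was also called in settings chosen after seeing the data, p adjusted over 1 probe set per gene (0.0468) and without the arrays numbered 2. It was not called with no filter (0.0601), a common median (0.0859), no intensity trend (0.0727), pseudocounts 1 and 64 (0.0561 and 0.0514) or the random block (0.0588). Over the arrays left out in turn its adjusted p ran from 0.0728 to 0.203. The second probe set of Kcnab1 was dim and was not tested. The beta 2 and beta 3 genes, Kcnab2 and Kcnab3, had no kept probe set.

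Of the inward rectifiers, Kcnj10 was low and Kcnj3 high in DBA/2J, neither past the threshold. Kcnj10 codes for Kir4.1, the potassium-buffering channel of glia. It read 684.1, 1001.2 and 866.4 in A/J against 454.7, 492.6 and 577.2 in DBA/2J. These arrays were apart, with a difference of -0.72 (SE 0.21, adjusted p = 0.128). Kcnj3 codes for Kir3.1, a subunit of the channel opened by G-protein beta-gamma subunits. Probe set 1455374_at read 102.4, 160.9 and 79.4 in A/J against 262.0, 213.5 and 304.5 in DBA/2J, with a difference of 1.12 (SE 0.28, adjusted p = 0.0772). The signals of A/J arrays 1 and 3 lay under 114, and with no filter the adjusted p was 0.142. It was called without A/J array 2 (1.36, adjusted p = 0.0495), which leaves A/J signals under that level alone. The other kept probe set of Kcnj3, 1421468_at, read 277.1 to 390.9 in A/J against 299.9 to 462.6 in DBA/2J, an overlap, with a difference of 0.14 (adjusted p = 0.847).

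No subunit of the ATP-sensitive channel passed the test. Kcnj8, the Kir6.1 pore of vascular cells, had 765.8, 945.9 and 1111.5 in A/J against 1114.5, 1662.7 and 1234.8 in DBA/2J. The groups touched without overlap, and the difference was 0.50 (SE 0.23, adjusted p = 0.344). Its sulphonylurea receptor partner Abcc9 differed by 0.57 (adjusted p = 0.210). Kcnj11, the Kir6.2 pore, had 600.4 to 658.2 in A/J against 518.9 to 698.3 in DBA/2J, with a difference of -0.09 (adjusted p = 0.891). Its partner Abcc8 differed by 0.31 (adjusted p = 0.608). Of the remaining tested inward rectifiers, Kcnj6 differed by -0.34, Kcnj12 by -0.20 and Kcnj13 by -0.71, each with overlapping arrays and an adjusted p of 0.241 or more.

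**Figure D3:**
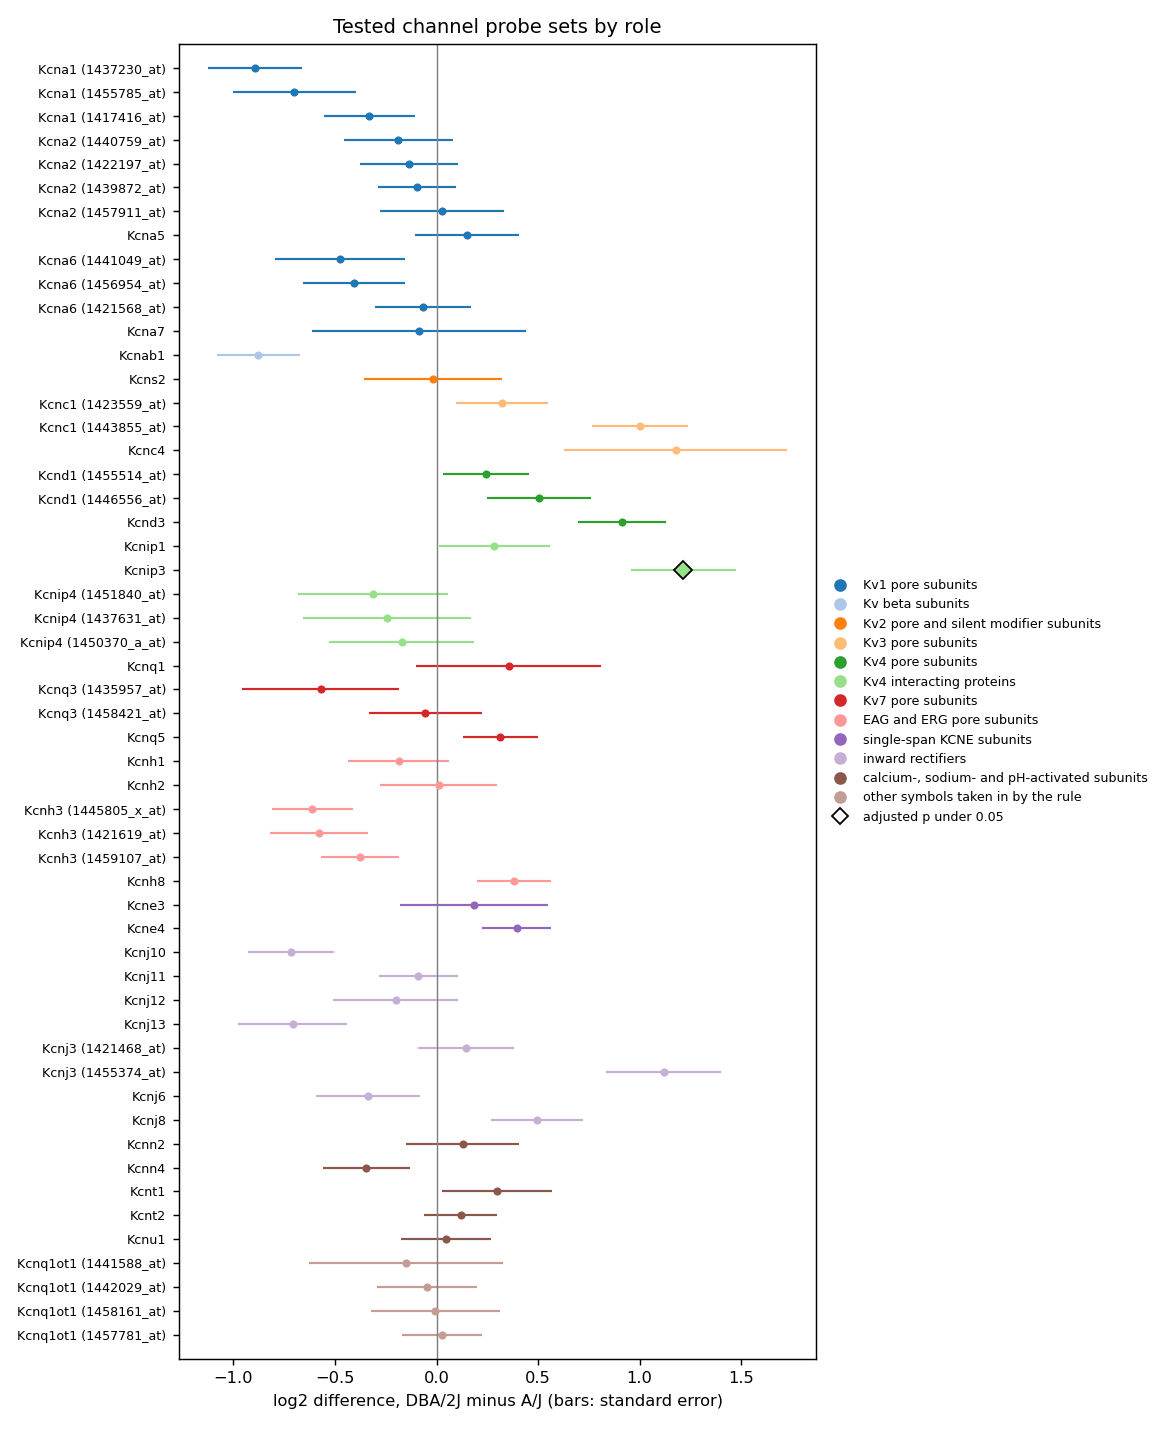
Difference between strains (horizontal axis, log2, DBA/2J minus A/J, with standard error bars) for the 54 tested channel probe sets, coloured by role; the diamond marks the probe set with an adjusted p under 0.05. Kcnip3 at 1.21 is the diamond, the Kv3 and Kv4 pore probe sets lie to the right of 0, and 10 of 12 Kv1 probe sets lie to the left.

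Most glial markers and most tested partner genes of Kv1 channels lay below 0, as did the kept probe sets of Kcna1, Kcnab1 and Kcnj10. Kcna2, which codes for the partner of Kv1.1, ran from -0.19 to 0.03 over its kept probe sets. The ganglion neuron markers had 6 above and 5 below 0. Mag, a myelin-associated glycoprotein, had mean signals of 491 ± 64.9 in A/J against 257 ± 50.1 in DBA/2J (± SD over 3 arrays), a difference of -0.90 (limma adjusted p = 0.0644). Cdh19, a cadherin of Schwann cell precursors, had 5101 ± 597 against 2888 ± 588, a difference of -0.83 (limma adjusted p = 0.0632). The median over the 9 glial markers was -0.57, and Gfap alone lay above 0 (0.21, limma adjusted p = 0.829). Of 12 proteins that assemble with Kv1 channels beside the node of Ranvier, 11 were tested, 8 lay below 0, the median was -0.42 and 0 were called (limma), with 2 lower at an unadjusted p under 0.05. The lowest were Lgi4, a Schwann cell ligand (-0.77, adjusted p = 0.126), Cntnap2, which holds Kv1 channels in place (-0.74, adjusted p = 0.343), and Lgi1 (-0.64, adjusted p = 0.197). The 3 above 0 were Adam22 (0.33, limma adjusted p = 0.542), Epb41l3 (0.04) and Dlg4 (0.00). Over all 21 tested partners of Kv1, Kv2, Kv4, Kv7 and Kir6 channels, 0 were called, 1 was higher and 4 were lower at an unadjusted limma p under 0.05, and the median was -0.18, beside 0.03 for all genes. The part of the glial cells in the channel values was not tested.

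**Figure D4:**
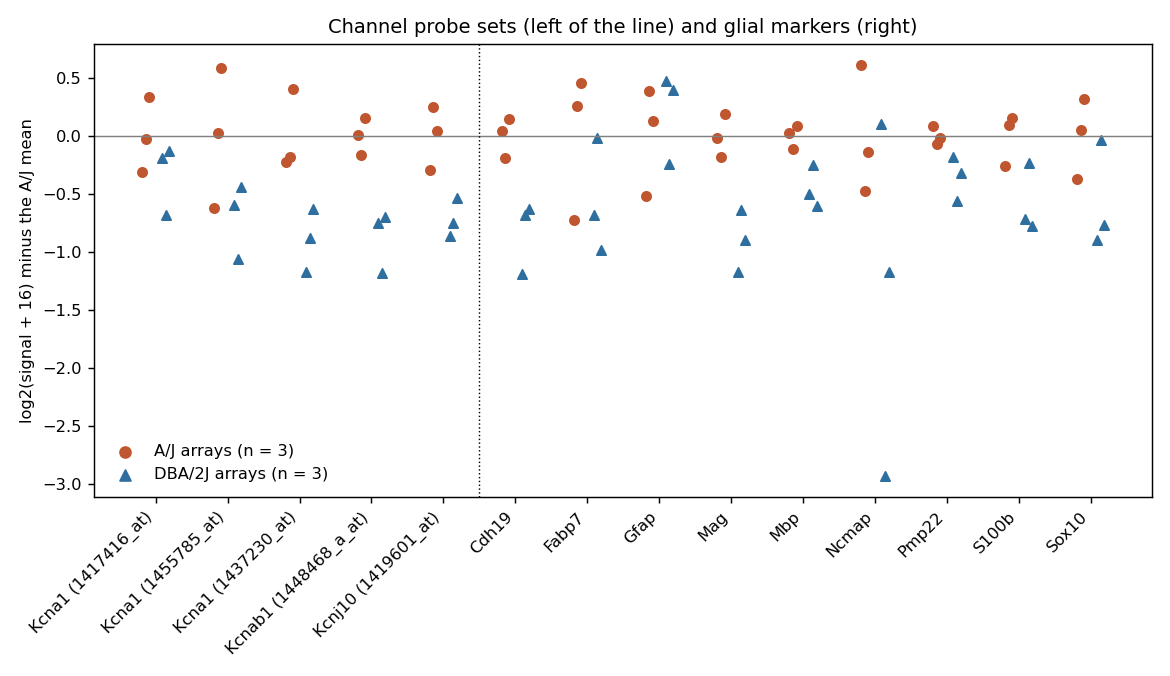
Value on each array (vertical axis, log2(signal + 16) minus the mean of the A/J arrays) for 5 probe sets of Kcna1, Kcnab1 and Kcnj10 (left of the dotted line) and 9 markers of Schwann and type II glia (right); circles are A/J, triangles DBA/2J. The DBA/2J arrays lie lower for all 5 channel probe sets on average and for 8 of 9 markers, Gfap being the exception, and for Kcnab1, Kcnj10 and Kcna1 (1437230_at) they do not overlap with A/J.

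In the other voltage-gated families 0 probe sets were called (limma), with 3 at an unadjusted p under 0.05. Kcnh3, an ELK-type channel, had differences below 0 at all 3 kept probe sets. Probe set 1445805_x_at had 538.5, 478.0 and 506.1 in A/J against 286.9, 393.2 and 307.2 in DBA/2J, a difference of -0.61 (SE 0.20, adjusted p = 0.169). The others gave -0.58 and -0.38 (adjusted p = 0.292 and 0.413), and in none of the 3 did the arrays overlap. The suffix x marks probes that can match other transcripts. Kcnh8, of the same group, differed by 0.38 (adjusted p = 0.374), with 377.4 to 411.2 in A/J against 481.3 to 554.9 in DBA/2J. Kcnh2, the ERG channel, had 246.4 to 496.1 and 321.6 to 487.8, and its difference of 0.01 lay far inside the spread.

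Kv7 channels carry the slow M-type current that holds neurons near rest. Kcnq5 had 292.3 to 317.5 in A/J against 367.4 to 391.9 in DBA/2J. Its arrays were tight and apart, but the difference of 0.31 did not pass (SE 0.18, adjusted p = 0.485). Kcnq1 differed by 0.36 with an SE of 0.45 and overlapping arrays. Kcne4, a single-span subunit that inhibits Kv1 and Kv7 channels, had 940.8 to 1015.8 in A/J against 1221.4 to 1333.7 in DBA/2J, a difference of 0.39 (SE 0.17, adjusted p = 0.308). Kcne3 differed by 0.19 (adjusted p = 0.877). The silent Kv2 partner Kcns2 differed by -0.02 (adjusted p = 0.989).

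For the channels gated by calcium, sodium or pH, 0 of 5 tested probe sets were called (limma), and 0 had an unadjusted p under 0.05. Their 5 tested probe sets, of Kcnn2, Kcnn4, Kcnt1, Kcnt2 and Kcnu1, ran from -0.35 to 0.30, and in none were the arrays apart. Kcnn4, the intermediate-conductance channel of blood and endothelial cells, had 566.8 to 732.0 in A/J against 424.7 to 587.0 in DBA/2J (difference -0.35, adjusted p = 0.515). Kcnt1, a sodium-activated channel of neurons, differed by 0.30 (adjusted p = 0.693). The non-coding Kcnq1ot1, which silences neighbouring genes on the paternal chromosome, had 4 kept probe sets from -0.15 to 0.03, all overlapping.

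Channel genes known from skeletal muscle had no call, while all 14 tested muscle markers were lower in DBA/2J. Of 6 such genes (Kcnj2, Kcnj11, Kcnj12, Kcna7, Kcnc4 and Kcne3), 5 were tested, 0 were called (limma), 2 lay above and 3 below 0, and the median was -0.09. At an unadjusted limma p under 0.05 there were also 0 of these 5. The median of the 14 muscle markers was -5.68. Kcna7, the Kv1.7 subunit of muscle, read 390.5, 80.8 and 298.1 in A/J against 117.2, 296.1 and 232.5 in DBA/2J. It was lowest on A/J array 2, the A/J array with the lowest muscle sum (52504), and highest within DBA/2J on array 2, which had the highest muscle sum of that strain (3305). Between strains its signal was much alike on DBA/2J array 2 (296.1) and A/J array 3 (298.1), with muscle sums of 3305 and 107510. Other marker sums also stood apart on the arrays numbered 2. The difference of Kcna7 between strains was -0.09 (SE 0.53), and the part of muscle in it was not tested. Kcnj2, the Kir2.1 pore, was dim on every array, with 5.9 to 22.7.

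The arrays numbered 2 departed from their strain at part of all tested probe sets (23.6%) and of the channel probe sets (31.5%). Their titles share a number across strains, as do those of the arrays numbered 3; what it stands for is not said. The fit without the arrays numbered 2 was chosen after seeing the data. Over the whole array it called 2143 of 27022 tested probe sets (limma, adjusted p under 0.05), against 883 with all arrays. Where the arrays numbered 2 cross the order of the strains, leaving them out widens the difference by construction. Adjusted p-values of that fit are therefore no evidence for a strain difference at such probe sets. All 3 kept probe sets of Kcnip4, the KChIP4 gene, showed the same order. Probe set 1437631_at read 900.4, 343.6 and 972.5 in A/J against 419.7, 880.1 and 486.4 in DBA/2J. On A/J array 2 it was lower than on any DBA/2J array, and on DBA/2J array 2 it was near A/J arrays 1 and 3. The difference was -0.24 (SE 0.41, adjusted p = 0.854) with all arrays and -1.02 (adjusted p = 0.0222) without the arrays numbered 2. Kcnq3, a Kv7 subunit, read 546.6, 234.0 and 657.6 against 283.2, 411.0 and 210.0 at probe set 1435957_at, and its difference went from -0.57 (adjusted p = 0.565) to -1.24 (adjusted p = 0.0183). Its other kept probe set, 1458421_at, read 112.1, 95.2 and 172.5 against 105.9, 130.8 and 117.7. There arrays 1 and 3 of the strains overlapped, and the difference with all arrays was -0.06 (limma adjusted p = 0.958). Kcnj13, the Kir7.1 pore, read 973.8, 593.1 and 737.9 against 362.6, 631.6 and 409.4. Arrays 1 and 3 of the strains were apart with arrays 2 in the opposite order in 17 of the 54 channel probe sets (31.5%), against 23.6% of all. These 17 came from 13 genes. Several other measures stood apart on the same arrays. A/J array 2 had the lowest sums of its strain for ganglion neuron (18550), adipocyte (47122) and muscle markers, and DBA/2J array 2 the highest of its strain (26877, 39005 and 3305). The macrophage and lymphocyte sums had the same order. Sums of type I cell, smooth muscle and endothelial markers ran the other way. Within its strain, A/J array 2 was highest in these (51956, 53854 and 8495) and DBA/2J array 2 lowest (85743, 36779 and 8943). Nefl, a neurofilament gene, read 1807.1, 981.2 and 2023.7 in A/J against 689.0, 1762.9 and 582.2 in DBA/2J, the order seen in Kcnip4 and Kcnq3 (1435957_at). Not all ganglion neuron markers shared this order. Nefh, another neurofilament gene, ran the other way, with 463.1, 937.3 and 568.6 in A/J against 729.6, 541.2 and 723.9 in DBA/2J. The Gapdh ratio was highest within each strain on array 2 (4.87 and 3.28). The part of these in the channel values was not tested.

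**Figure D5:**
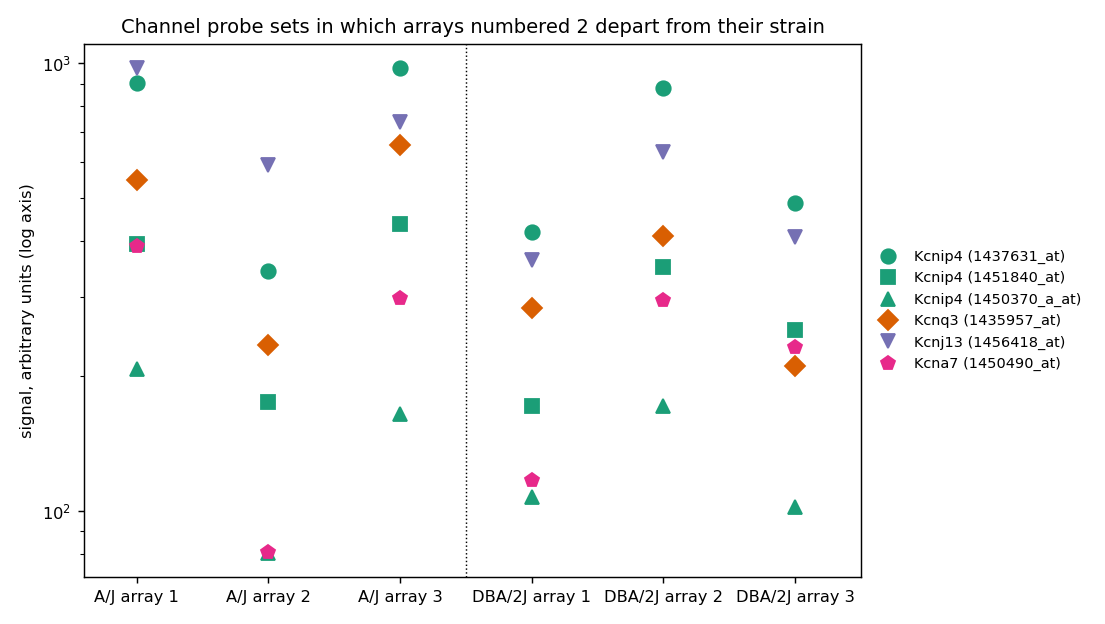
Signal (vertical axis, arbitrary units, log scale) on each array (horizontal axis, A/J left and DBA/2J right of the dotted line) for the 3 kept probe sets of Kcnip4 and for Kcnq3, Kcnj13 and Kcna7. In all 6, A/J array 2 is the lowest A/J array and DBA/2J array 2 the highest DBA/2J array.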

How the data were processed

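The deposited table holds linear intensity signals, 1 value per probe set and array, and their mean without the lowest and highest 2% was 500.0 on each array, a common scale that the deposited values carry. The signal algorithm was not given in the sources used here. Per the labels' protocols, RNA was extracted with Trizol and amplified by repeated cDNA synthesis and in vitro transcription from the poly(A) end, which lowers signal far from the 3' end. Medians lay between 163.6 and 183, and arrays correlated over the probe sets with a Pearson r of 0.939 to 0.964 within a strain and 0.925 to 0.946 between strains.

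Gene names came from GEO's platform annotation, and all 66 channel symbols matched the RefSeq table (GRCm38.p6). In R 4.3.3 with limma 3.58.1, 64 control probe sets were left out, signals were taken as log2(signal + 16), the upper 60% by mean over the 6 arrays were kept (27022), and DBA/2J minus A/J was fitted across all of them (lmFit, eBayes with an intensity trend, two-sided). P-values were adjusted by Benjamini-Hochberg with a threshold of 0.05. A gene's brightest kept probe set stood for it in medians. Alternatives changed the normalization, pseudocount, filter, trend, array weights, replicate block and the arrays used. Array numbers are those of the labels for A/J and the order of deposit for DBA/2J. The procedure was tested on simulated data. Figures were drawn with matplotlib 3.10.9.

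Channels, marker lists and partner lists were chosen with earlier results of these data known. Named were channels that were called, those at least 1.5-fold apart without overlap of arrays, the leading genes of each role and a fixed set of carotid body channels, 26 genes; of that set 3 symbols were not analysed here. Kcna5, Kcna7, Kcnip1, Kcnj2, Kcnj6, Kcnj12, Kcnj13, Kcnn2, Kcnt2, Kcnu1 and the untested genes were named outside this rule, after their values were seen.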

Additional observations from a re-analysis of the deposited data

How the results depend on the processing

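Over 19 alternatives the count of channel probe sets called higher in DBA/2J, 1 in the report (limma), was 0 with no filter, with the upper 40% of probe sets (where Kcnip3 was not kept), with the fixed replicate block and without A/J arrays 1 and 3, and 0 to 2 with each array left out in turn. It was 2 without an intensity trend (Kcnip3 and Kcnc1) and without the arrays numbered 2 (Kcnip3 and Kcnj3, chosen after seeing the data), and 4 with array weights. The count called lower, 0 in the report, was 1 (Kcnab1) with quantile normalization, with the upper 40% and with p adjusted over 1 probe set per gene (also chosen after seeing the data), 4 without the arrays numbered 2 and 5 with array weights. Over the whole array 3007 probe sets were called with array weights and 2143 without the arrays numbered 2, against 883. The number shared in the titles of the arrays numbered 2 and 3 was used as a replicate block: as a random block (correlation -0.035) 1 channel probe set was called, and as a fixed block 0, with 0 of all probe sets called. Shared by only 2 pairs, the number is not shown to pair the samples. Partner proteins, 0 called in the report, gave 3 with array weights, 3 without the arrays numbered 2, and 0 to 1 with each array left out in turn. The median over channel genes, 0.03, was 0.29 without A/J arrays 1 and 3, which leaves 1 A/J array that is assumed to vary like the others. Scaling to one median and pseudocounts of 1 and 64 changed no count of channel or partner calls. Of 558 values of named probe sets under the alternatives, 30 changed sign, none of them called. Signal over background was not measured, and 22 of 54 tested channel probe sets were near the lower end of the kept range.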

Other observations

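Channel genes that lie next to each other on a chromosome, with no other protein-coding gene between them in RefSeq, formed 7 pairs, and in 2 of them both genes were tested. Kcna1 and Kcna6, both Kv1 pore genes, differed by -0.33 and -0.41 at their brightest probe sets. Kcna5 and Kcna1 differed by 0.15 and -0.33. In the pair of Kcnj9 and Kcnj10, the latter was tested (-0.72), and the brightest probe set of Kcnj9, too dim for the test, gave -0.30.

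A start-site window of Kcnab1 (chr3:65108764-65109063) and another (chr3:65187853-65188152) each held CACGTG, an E-box that contains ACGTG once on each strand. The window of Kcne4, a gene higher in DBA/2J with arrays apart, held CACGTG too. A further window of Kcnab1 (chr3:64948962-64949261) and the window of Kcnc1 held neither motif.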
